A study of Mus musculus with 12 samples.

Results

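Chemokine ligands are the secreted or membrane-tethered proteins that direct the migration of leukocytes, and their transcripts were followed here in naïve and demyelinated spinal cord white matter of young and middle-aged mice. A gene was counted as a member if its mouse symbol was Ccl, Cxcl, Cx3cl or Xcl with a number, or if it was Pf4 or Ppbp, and receptors were left out. Of 46078 genes in the count table, 40 were members. They comprised 23 CC ligands, 15 CXC ligands, 1 CX3C ligand and 1 C ligand. Cxcl11 is annotated as a polymorphic pseudogene and every other member as protein-coding.

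The classes are named after the spacing of the cysteines near the start of the mature protein. Chemokines bind receptors of the G protein-coupled class on leukocytes and glia. CC ligands such as Ccl2 mainly draw monocytes and other mononuclear cells, the CXC ligands around Cxcl1 draw neutrophils, and Cxcl9, Cxcl10 and Cxcl11 draw activated T cells under interferon. In the healthy central nervous system, Cx3cl1 is made chiefly by neurons and is read by Cx3cr1 on microglia, and Cxcl12 acts through Cxcr4 during cell migration and vascular upkeep. After demyelination, monocytes enter the lesion in part through Ccl2 and its receptor Ccr2.

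Ventrolateral white matter of C57Bl6 mice was isolated from sections under a microscope with a cutting laser (laser capture microdissection), and its RNA was sequenced. The 4 groups crossed age (young or middle-aged) with state (naïve or injured), with 3 pools of 5 mice in each. Lesions were collected at day 3, 72 h after lysolecithin, a detergent-like lipid that strips myelin, had been injected locally, whereas naïve mice had no lesion, so that the injection itself and the toxin cannot be told apart. By the methods of this experiment young mice were 6 weeks and middle-aged mice 8 months old, and the labels give only the words. A replicate is a pool of separate mice, and the p-values below measure the spread between pools, not between the mice inside a pool. Pools held 9834447 to 12807437 counts. Levels are in CPM, counts scaled to a library of 1000000 reads after TMM scaling, with the SD over 3 pools. The RNA was amplified before sequencing, so counting intervals and floors cover counting error only. A floor of 3 counts corresponded to 0.234 to 0.305 CPM of the library total. Markers of oligodendrocytes, the myelin-forming cells, were abundant in each naïve pool, with a summed level of 53009 to 101953 CPM, and their sum was 7930 to 20256 CPM in injured pools.

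Of the 40 members, 19 passed the filter on low counts and were tested. No read was counted in any pool for 6 members, Ccl1, Ccl20, Ccl21b, Ccl26, Ccl27b and Cxcl15. A further 15 had some counts but did not pass, namely Ccl17, Ccl19, Ccl21a, Ccl22, Ccl24, Ccl28, Cxcl2, Cxcl3, Cxcl5, Cxcl9, Cxcl11, Cxcl13, Cxcl17, Ppbp and Xcl1. The highest count among them was 54, for Cxcl13. A low count here limits what could be seen at this depth and does not show that a ligand was absent. Of the 19 members tested, 8 reached 10 counts in every pool of an injured group and in every pool of no naïve group (Ccl3, Ccl4, Ccl5, Ccl7, Ccl8, Ccl11, Ccl12 and Pf4). They entered the test through the injured pools, and the count of members that rose is read with that in mind. The same holds for Cxcl1, which reached 10 counts in 4 injured pools and 0 naïve pools. With a floor of 3 counts in every pool of a group, 9 members were detected in naïve tissue of young and 15 in that of middle-aged mice, and 19 and 22 in their lesions. With 10 counts as the floor, these numbers were 6, 9, 16 and 17.

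Many members lie side by side in the genome. On chromosome 11 of GRCm38, Ccl2, Ccl7, Ccl11, Ccl12, Ccl8 and Ccl1 occupied chr11:82035571-82305690, and Ccl5, Ccl9, Ccl6, Ccl3 and Ccl4 occupied chr11:83525778-83664683. On chromosome 5, Cxcl5, Ppbp, Pf4, Cxcl3, Cxcl15, Cxcl1 and Cxcl2 lay within chr5:90759360-90905938, and Cxcl9, Cxcl10 and Cxcl11 within chr5:92321347-92365485. Some members share sequence or overlap a gene on the other strand, and the strand setting of the counting was not given in the sources used here. Exons of Cxcl10 overlap Art3, those of Cxcl16 overlap Zmynd15, those of Ccl25 overlap Elavl1 and those of Ccl27a overlap Il11ra1. Values of Ccl19, Ccl21a, Ccl21b, Ccl27a, Ccl27b, Cxcl11, Cxcl16 and Xcl1, which share sequence with near-identical or overlapping genes, are uncertain for that reason.

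The 250 bases before the start of transcription were available for 29 members from RefSeq (GRCm38.p6) and were searched on both strands for the NF-kB consensus, for the interferon-stimulated response element (ISRE), for the gamma-activated site GAS (TTCNNNGAA) and for AP-1 (TGANTCA). Ccl2, Ccl4, Ccl5, Ccl7, Ccl11, Ccl24, Ccl26, Cxcl5, Cxcl11, Cxcl16 and Cxcl17 had no entry. The NF-kB consensus was found in 6 members (Ccl9, Ccl20, Cxcl1, Cxcl2, Cxcl3 and Cxcl10) and in 3.9% of all 32851 promoter windows of that length. ISRE was found in 3 members (Ccl19, Cxcl10 and Cxcl14) and in 2.98% of windows, GAS in 2 (Ccl17 and Cxcl14) and in 7.02%, and AP-1 in 5 (Ccl9, Ccl27a, Ccl27b, Cxcl10 and Ppbp) and in 6.75%. A member was counted if any of its windows matched, and Ccl25, Ccl27a and Ccl27b had additional windows, whereas the percentages are of windows. The member counts and the percentages are therefore in unlike units. The windows of 4 members are shown because the results below turn on them: Cxcl10, whose level differed between naïve groups, Ccl9 and Ccl6, neighbours that were both higher in middle-aged than in young lesions, and Cxcl14, which did not pass the test in any comparison. Each is written from 5′ to 3′ on the minus strand of the genome, which is the strand of the gene, and capitals mark the motif matches. They are chr5:92348890-92349139 for Cxcl10, chr11:83578637-83578886 for Ccl9, chr11:83593088-83593337 for Ccl6 and chr13:56296552-56296801 for Cxcl14.
Cxcl10: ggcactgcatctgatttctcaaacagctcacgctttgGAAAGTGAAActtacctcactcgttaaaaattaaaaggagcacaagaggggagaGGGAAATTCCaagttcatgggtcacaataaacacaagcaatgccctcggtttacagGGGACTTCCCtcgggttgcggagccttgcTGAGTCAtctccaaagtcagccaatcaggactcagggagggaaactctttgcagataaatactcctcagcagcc
Ccl9: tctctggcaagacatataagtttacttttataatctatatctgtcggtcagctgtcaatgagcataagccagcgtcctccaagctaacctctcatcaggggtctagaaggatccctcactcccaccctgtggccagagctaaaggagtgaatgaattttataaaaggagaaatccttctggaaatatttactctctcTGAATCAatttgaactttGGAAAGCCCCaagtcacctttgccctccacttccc
Ccl6: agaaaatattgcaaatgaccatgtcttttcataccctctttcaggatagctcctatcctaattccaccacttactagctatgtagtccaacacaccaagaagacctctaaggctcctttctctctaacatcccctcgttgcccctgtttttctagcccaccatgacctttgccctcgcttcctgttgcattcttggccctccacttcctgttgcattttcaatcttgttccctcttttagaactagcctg
Cxcl14: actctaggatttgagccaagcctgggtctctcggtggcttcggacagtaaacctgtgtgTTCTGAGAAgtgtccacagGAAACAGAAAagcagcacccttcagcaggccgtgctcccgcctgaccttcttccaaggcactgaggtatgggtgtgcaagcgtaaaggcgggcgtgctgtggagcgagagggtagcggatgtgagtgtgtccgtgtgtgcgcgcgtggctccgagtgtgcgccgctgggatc

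The Cxcl10 window held 1 ISRE match, 2 NF-kB matches and 1 AP-1 match, in that order towards the start. The Ccl9 window held AP-1 and NF-kB matches close to the start, and the Ccl6 window, of the gene next to Ccl9, held none of the 4 motifs. The Cxcl14 window held a GAS and an ISRE match. A match is a string of letters and was not tested as a binding site.

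In young naïve white matter, the family was led by Cxcl14, Cx3cl1 and Cxcl12. Cxcl14 is a constitutively made ligand of epithelia and brain, Cx3cl1 (fractalkine) is the ligand of the microglial receptor Cx3cr1, and Cxcl12 is the ligand of Cxcr4. To compare genes, CPM was divided by the length of the merged exons in kilobases. On this scale of level, Cxcl14 was at 10.4 ± 2.46, Cx3cl1 at 8.97 ± 2.15 and Cxcl12 at 6.79 ± 1.12 CPM per kb in young naïve tissue (SD, n = 3), and the spreads of neighbours in this order overlapped. In middle-aged naïve tissue Cx3cl1 was at 10.6 ± 2.19, Cxcl14 at 8.12 ± 1.36 and Cxcl12 at 7.47 ± 0.426 CPM per kb. There the order differed between pools, since Cxcl10 held the largest share in pool 1 (23.1%, against 16.2% for Cx3cl1), and Ccl6 with 14.5% stood above Cxcl14 and Cxcl12 in pool 2. These 3 ligands together made up 63.6 to 75.1% of the family's summed CPM per kb in young naïve pools and 40.5 to 59.6% in middle-aged naïve pools. In injured pools the same share was 4.38 to 6.33% in young and 2 to 2.89% in middle-aged mice. Ccl6 held 9.16 to 16.2% of the sum in young and 11.3 to 14.5% in middle-aged naïve pools.

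**Figure D1:**
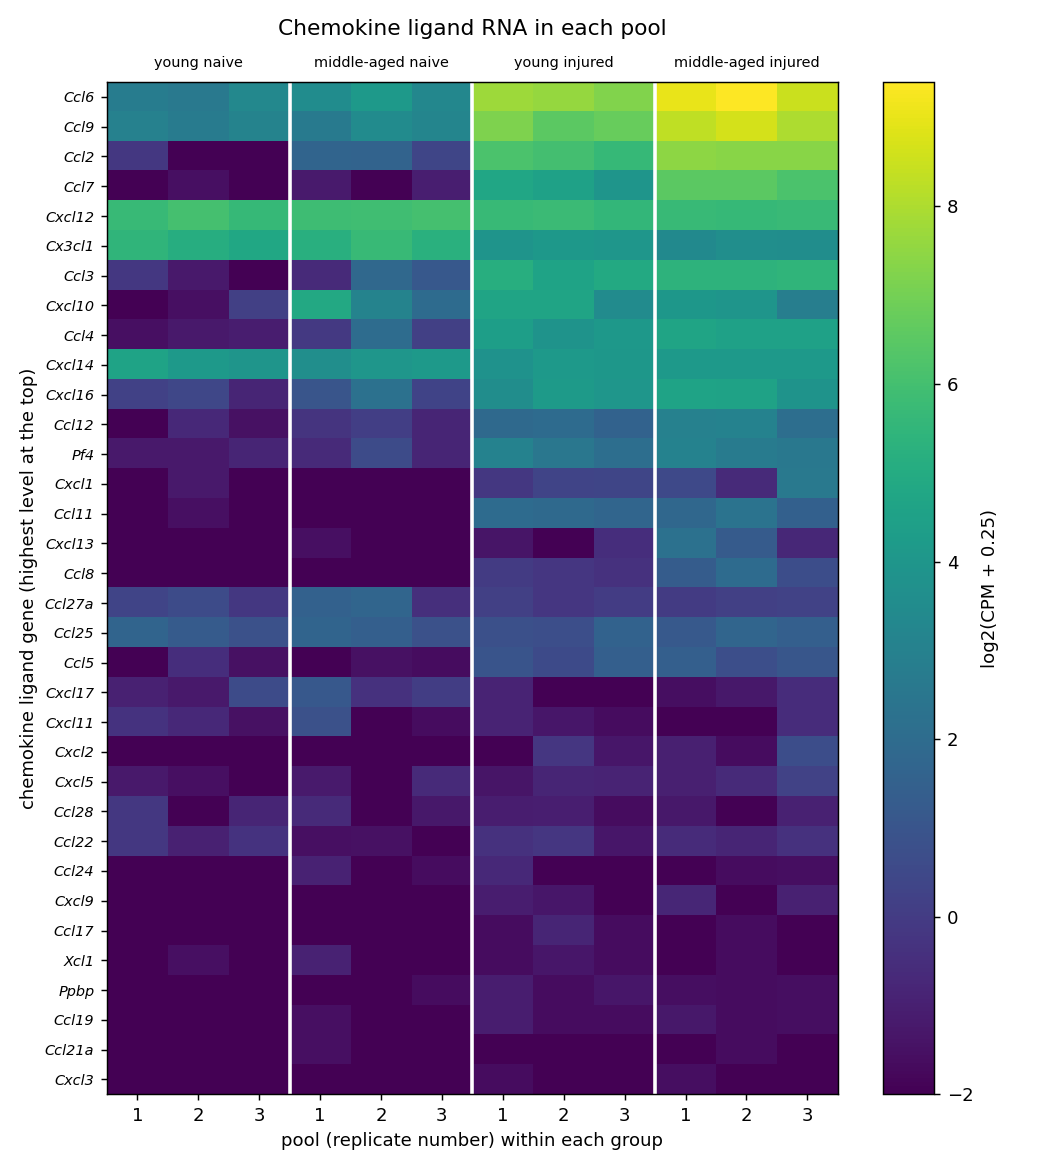
Heat map of the members with any count. Rows are genes ordered by their highest level, columns are the 12 pools by group, and colour is log2(CPM + 0.25); Ccl6, Ccl9, Ccl2 and Ccl7 stand at the top and are brightest in the injured pools, while Cxcl12 and Cx3cl1 are bright in every naïve pool and Cxcl10 is bright in middle-aged naïve pool 1 (29.4 CPM).

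In lesions the profile was a different one. The summed level of the family was 33.6 to 40.9 CPM per kb in young naïve and 294 to 401 in young injured pools, and 44.9 to 65.9 and 662 to 934 in those of middle-aged mice, with no overlap between any of the 4 groups. Ccl6 held the largest share in each injured pool (28.4 to 32.3% in young and 29.9 to 40.3% in middle-aged mice). Ccl2, Ccl6, Ccl7 and Ccl9 together held 61.7 to 66.3% of the sum in young injured and 77.8 to 82.6% in middle-aged injured pools. The share is a composition within each pool and moves with each member.

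**Figure D2:**
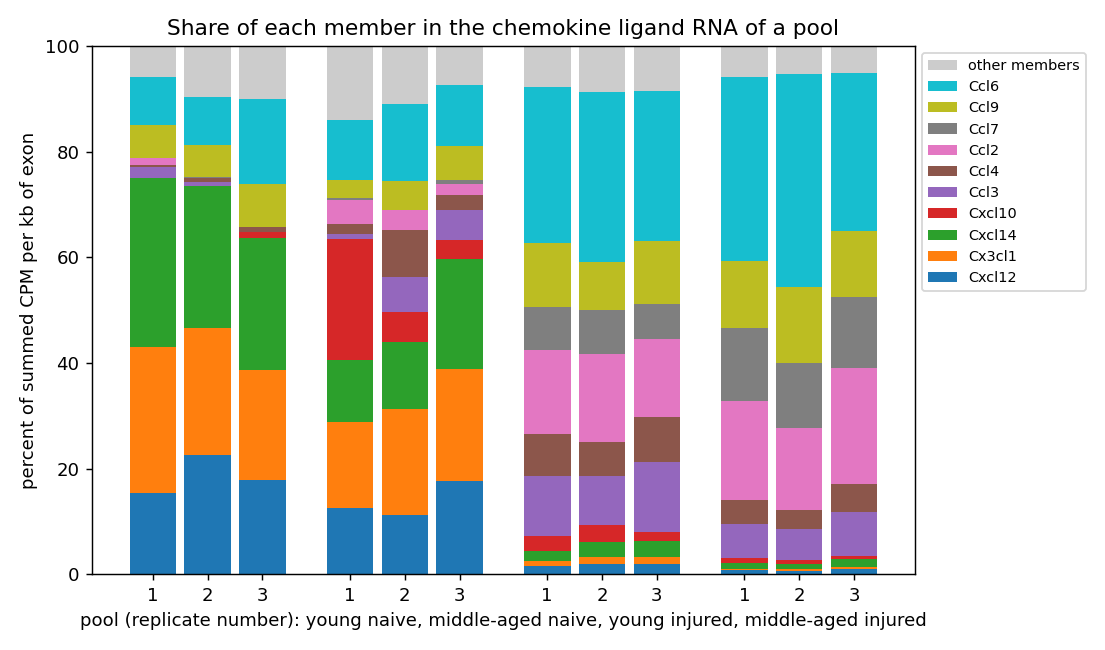
Stacked bars of each member's percent of the family's summed CPM per kb of exon in each of the 12 pools, 3 per group. Cxcl12, Cx3cl1 and Cxcl14 fill 40.5 to 75.1% of the naïve bars and 2 to 6.33% of the injured bars, where Ccl6, Ccl9, Ccl2 and Ccl7 fill 61.7 to 82.6%.

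The first comparison asked which ligands changed with the lesion in young mice. Of the 19 members tested, 15 were called by edgeR's quasi-likelihood test at a Benjamini-Hochberg adjusted p under 0.05, against 54.6% of all 15866 genes tested. Of these, 14 were higher (all genes, 28.3%) and 1, Cx3cl1, was lower (all genes, 26.3%). In middle-aged mice 14 members were called (all genes, 58.5%), of which 13 were higher (29.2%) and Cx3cl1 was again lower (29.3%). The 13 were the young mice's 14 without Cxcl10. The median log2 fold change of the tested members was 4.28 in young and 3.75 in middle-aged mice, or 4.25 and 3.38 with members that had no count in naïve tissue set at their lower bounds, beside medians of all genes of 5.42e-04 and -0.0322. Ccl3, Ccl4, Ccl5, Ccl7, Ccl8, Ccl11, Ccl12, Pf4 and Cxcl1, which entered the test through the injured pools, are part of these counts and medians. Both therefore lean towards a rise. Among members with at least 10 counts in every pool of every group, Ccl6 and Ccl9 rose at both ages and Cx3cl1 fell. The others, Ccl25, Cxcl12 and Cxcl14, were not called at either age. In bulk tissue, a change in the number of cells and a change in RNA per cell cannot be told apart.

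**Figure D3:**
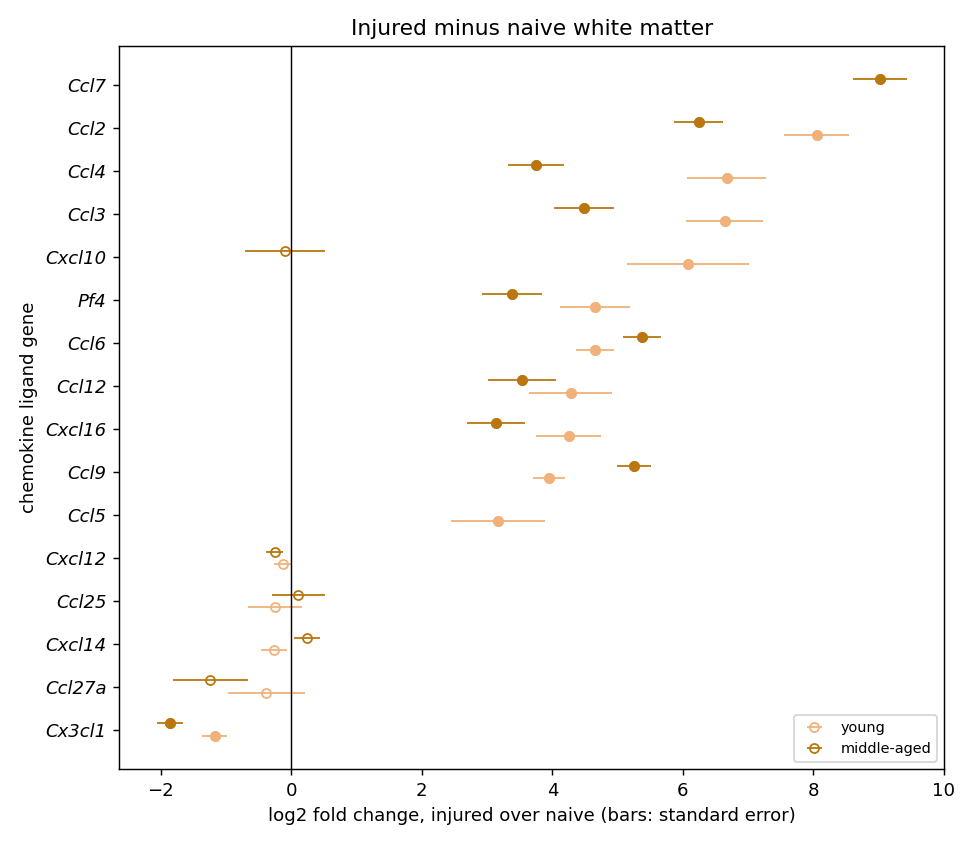
Log2 fold change of each member, injured over naïve, in young and middle-aged mice; points are estimates, bars are standard errors, and filled points passed an adjusted p of 0.05. Values against a naïve group with 3 counts or fewer in all are left out, since their fitted fold rests on the prior count; the plotted points lie above 3 for Ccl2, Ccl3, Ccl4, Ccl6, Ccl9, Ccl12, Cxcl16 and Pf4 at both ages, and below 0 for Cx3cl1.

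Ccl2 and Ccl7, adjacent ligands of the monocyte receptor Ccr2, were among the strongest changes. Ccl2 stood at 7, 0 and 0 counts in the young naïve pools, at 990, 827 and 655 in the young injured, at 31, 27 and 13 in the middle-aged naïve and at 2158, 2057 and 1910 in the middle-aged injured pools. Naïve and injured pools did not overlap at either age, and the middle-aged pools lay above the young pools in each state. Ccl2 rose by a log2 fold change of 8.05 (SE 0.50, adjusted p = 9.26e-09) in young and 6.24 (SE 0.37, adjusted p = 5.88e-09) in middle-aged mice. Young naïve pool 1 held all 7 counts of its group, and without it Ccl2 was at least 209-fold above the floor of 3 counts per library in young lesions (adjusted p = 4.83e-08). The log2 fold change was 7.46 when young naïve pool 2 was left out. Ccl7, a second ligand of Ccr2, had 0, 1 and 0 counts in young naïve and 357, 290 and 203 in young injured pools, and 2, 0 and 3 in middle-aged naïve against 1118, 1157 and 826 in middle-aged injured pools. Ccl7 counts in naïve tissue stayed at or below 3 in every pool. Its ratio of summed counts in young mice was 669 with a 95% counting interval of 120 to 26438 (adjusted p = 5.12e-09), and in middle-aged mice its log2 fold change was 9.02 (SE 0.41, adjusted p = 4.76e-10). Without young naïve pool 2, which held the single count, Ccl7 was at least 71.6-fold above that floor in young mice (adjusted p = 2.72e-07). Only 20 genes of those tested, 0.126%, had a larger fitted change than Ccl7 in middle-aged mice. The count of Ccl2 was 2.77 to 3.23 times that of Ccl7 in young injured and 1.78 to 2.31 times in middle-aged injured pools.

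The other members of that cluster were present at far lower counts. Ccl12, a mouse ligand of Ccr2, had 0, 4 and 1 counts in young naïve and 47, 48 and 36 in young injured pools, and 6, 8 and 4 in middle-aged naïve against 95, 101 and 48 in middle-aged injured pools. It rose at both ages (log2 fold change 4.28, adjusted p = 4.93e-05, and 3.54, adjusted p = 3.95e-05). The ratio of summed Ccl12 counts in young mice, with naïve pool 2 left out, was 66.7 (95% counting interval 11.8 to 2656, adjusted p = 5.99e-05), against 20.6 (8.61 to 64.5) with all pools. Ccl11 (eotaxin), which draws eosinophils through Ccr3, had 0, 1 and 0 counts in young naïve pools and none in middle-aged naïve pools, against 50, 45 and 41 in young injured and 39, 61 and 30 in middle-aged injured pools. The ratio of summed Ccl11 counts was 107 (95% counting interval 18.9 to 4256, adjusted p = 9.89e-06) in young mice, and the middle-aged level was at least 12.7-fold higher than the floor of 3 counts per library (adjusted p = 4.28e-06). The young Ccl11 level, with young naïve pool 2 left out, was at least 11.5-fold above that floor (adjusted p = 7.34e-05). Ccl8, a CC ligand of the same cluster, had no count in any naïve pool, 10, 8 and 7 in young injured pools and 27, 47 and 16 in middle-aged injured pools. Against the same floor, Ccl8 was at least 2.17-fold higher in young (adjusted p = 0.00182) and at least 8.75-fold higher in middle-aged lesions (adjusted p = 7.63e-05). Ccl1, at the end of the cluster, was not counted in any pool.

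In the second cluster on chromosome 11, Ccl6 and Ccl9, 2 mouse ligands of the receptor Ccr1, were already measurable in naïve tissue. Ccl6 stood at 6.74, 5.89 and 9.78 CPM in young naïve, 213, 196 and 150 in young injured, 11.4, 17.1 and 9.36 in middle-aged naïve and 523, 676 and 355 CPM in middle-aged injured pools. Injured pools lay above all naïve pools, and the middle-aged injured above the young injured. Ccl6 rose by 4.65 on the log2 scale (SE 0.29, adjusted p = 1.15e-08) in young and 5.37 (SE 0.29, adjusted p = 2.69e-09) in middle-aged mice. Ccl9 stood at 7.74, 6.53 and 8.28 CPM in young naïve, 148, 93.2 and 108 in young injured, 5.95, 11.1 and 8.88 in middle-aged naïve and 322, 412 and 254 CPM in middle-aged injured pools. As with Ccl6, the middle-aged injured pools lay above the young injured pools, and the naïve groups overlapped. Ccl9 rose by 3.95 (SE 0.25, adjusted p = 1.33e-08) and 5.25 (SE 0.26, adjusted p = 1.25e-09).

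Ccl3 and Ccl4, the macrophage inflammatory proteins, which draw macrophages and T cells, were low in naïve tissue. Ccl3 had 7, 2 and 0 counts in young naïve, 477, 310 and 396 in young injured, 4, 32 and 24 in middle-aged naïve and 496, 516 and 499 in middle-aged injured pools. Ccl4 had 1, 2 and 2 counts in young naïve, 286, 186 and 221 in young injured, 7, 37 and 11 in middle-aged naïve and 303, 286 and 265 in middle-aged injured pools. Both rose without overlap at each age, and their counts kept a ratio of Ccl3 to Ccl4 of 1.67 to 1.79 in young and 1.64 to 1.88 in middle-aged injured pools. Ccl3 rose by 6.64 (SE 0.59, adjusted p = 3.44e-07) in young and 4.48 (SE 0.46, adjusted p = 1.20e-06) in middle-aged mice. Ccl4 rose by 6.67 (SE 0.61, adjusted p = 4.37e-07) and 3.75 (SE 0.43, adjusted p = 4.21e-06). Without young naïve pool 1, the ratio of summed Ccl3 counts in young mice was 302 (95% counting interval 83.5 to 2498), against 103 (54.3 to 227) with all pools. Without middle-aged naïve pool 2, the middle-aged fold changes were 5.11 for Ccl3 and 4.9 for Ccl4. Ccl5 (RANTES), made by T cells and activated glia, stayed near the floor in naïve tissue and had 23, 16 and 33 counts in young injured and 30, 18 and 21 in middle-aged injured pools. Its log2 fold change was 3.17 (SE 0.72, adjusted p = 0.00185) in young mice, and its ratio of summed counts was 31 (95% counting interval 8.25 to 261, adjusted p = 2.65e-04) in middle-aged mice, where naïve tissue held 2 counts in all. Young naïve pool 2 held 5 of the 6 young naïve counts of Ccl5, and without it the ratio of summed counts was 36.7 (95% counting interval 6.38 to 1469, adjusted p = 7.60e-04), against 9.44 (4.13 to 26.6) with all pools.

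Among CXC ligands, Cxcl10, the interferon-induced ligand of Cxcr3, was called with injury in young mice and was not called in middle-aged mice. It stood at 0, 0.0906 and 0.86 CPM in young naïve, 25.3, 24.9 and 11.1 in young injured, 29.4, 8.29 and 3.76 in middle-aged naïve and 16, 15.3 and 6.99 CPM in middle-aged injured pools. The young groups were apart, whereas the middle-aged naïve and injured pools overlapped, and middle-aged naïve pool 1 was the highest of all 12. Cxcl10 rose by 6.08 (SE 0.94, adjusted p = 7.33e-05) in young mice, whereas the middle-aged log2 difference was -0.10 (SE 0.61, adjusted p = 0.895). Without that pool, the middle-aged difference was 1.11 (adjusted p = 0.0949). In young mice the log2 fold change was 5.48 without naïve pool 1. Without naïve pool 3, which held 8 of the 9 counts, the ratio of summed counts was 450 (95% counting interval 80.6 to 17799, adjusted p = 1.67e-04), against 71.1 (37.3 to 156) with all pools. Counts of Art3, which overlaps Cxcl10 on the other strand, were 196 to 269 in young naïve and 57 to 111 in young injured pools, 494 to 733 in middle-aged naïve and 46 to 80 in middle-aged injured pools, and 4.5% of the 31-base words of Cxcl10 exons were shared with another gene. The part of Art3 reads in the Cxcl10 counts was not tested. Cxcl9, its neighbour with the same receptor, had at most 4 counts in any pool, and the neighbouring Cxcl11, annotated as a polymorphic pseudogene, at most 16.

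Cxcl16, a membrane-bound ligand of Cxcr6 and a scavenger receptor, had 10, 12 and 3 counts in young naïve, 161, 234 and 209 in young injured, 18, 43 and 12 in middle-aged naïve and 288, 296 and 165 in middle-aged injured pools. Injured pools lay above naïve pools at both ages. It rose by 4.25 (SE 0.50, adjusted p = 5.69e-06) and 3.14 (SE 0.44, adjusted p = 2.55e-05), the latter 3.96 without middle-aged naïve pool 2. Zmynd15, which overlaps it on the other strand, had 0 to 2 counts in young naïve and 20 to 44 in young injured pools. In middle-aged mice Zmynd15 had 3 to 28 counts in naïve and 13 to 48 in injured pools. Of the 31-base words of Cxcl16 exons, 18.5% were shared with another gene, and how reads were divided between Cxcl16 and Zmynd15 was not tested. Pf4 (platelet factor 4), stored in platelets and also made by macrophages, had 2, 2 and 3 counts in young naïve, 110, 71 and 54 in young injured, 4, 12 and 4 in middle-aged naïve and 97, 80 and 65 in middle-aged injured pools. Pf4 rose by 4.65 (SE 0.54, adjusted p = 4.80e-06) and 3.38 (SE 0.46, adjusted p = 2.12e-05), the latter 4.22 without middle-aged naïve pool 2. Ppbp, the other ligand of platelet granules, had at most 3 counts in any pool, and the summed level of 7 platelet markers was 0.958 to 2.71 CPM over all pools. Of these, Gp6 was at 0, Gp9 reached 1 count, Treml1 6, Gp1ba 12, Itga2b 13 and Gp1bb 15. Gp1bb alone could be tested and was not called in either injury comparison, whereas Treml1 had 0 counts in every naïve pool, 2 to 6 in young injured and 2 to 4 in middle-aged injured pools. The part of platelets in the Pf4 level was not tested.

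Cxcl1, which draws neutrophils through Cxcr2, had the highest adjusted p of the members called with injury in young mice. It had 0, 2 and 0 counts in young naïve and 9, 13 and 14 in young injured pools, no count in middle-aged naïve and 14, 5 and 67 in middle-aged injured pools. Middle-aged injured pool 3 stood apart from the other counts of its group. The ratio of summed counts in young mice was 14.2 (95% counting interval 3.65 to 121, adjusted p = 0.0297), a call that was lost when young naïve pool 1 or 3 or young injured pool 2 or 3 was left out (adjusted p 0.0573 to 0.0945). Without young naïve pool 2, which held both naïve counts, the young level was at least 3.05-fold above the floor (adjusted p = 0.0313). In middle-aged lesions Cxcl1 was at least 8.72-fold above the floor (adjusted p = 0.00116), and at least 2.78-fold without pool 3 (adjusted p = 0.00386). Of the other ligands of Cxcr2, Cxcl2 reached 16 counts and Cxcl5 reached 11 in the same pool, Cxcl3 had at most 1, and Cxcl15 had none. The summed level of 7 neutrophil markers was at most 3.38 CPM in any pool, and 1 of them, S100a8, could be tested. S100a8 was higher in lesions at both ages, but it had no naïve count and entered the test through the injured pools.

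Cx3cl1 was the only member called lower. It stood at 44.4, 33.8 and 27.6 CPM in young naïve, 14.8, 16.8 and 15.4 in young injured, 36.1, 51.7 and 37.6 in middle-aged naïve and 10.5, 12.2 and 11.7 CPM in middle-aged injured pools. Every injured pool lay below every naïve pool. Cx3cl1 fell by 1.17 on the log2 scale (SE 0.19, adjusted p = 1.39e-04) in young and fell by 1.86 (SE 0.20, adjusted p = 1.84e-06) in middle-aged mice. The summed level of 4 neuronal markers was 681 to 1976 CPM in naïve and 275 to 480 CPM in injured pools. Of these markers, 2 of 4 were lower in young lesions (all genes, 26.3%). In middle-aged lesions 3 of 4 were lower (29.3%) and 1 was higher (29.2%). The part of neurons in the fall of Cx3cl1 was not tested.

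Cxcl12 and Cxcl14 did not pass the test at either age. Cxcl12 stood at 55.6 ± 9.15 CPM in young naïve, 50.8 ± 4.22 in young injured, 61.1 ± 3.49 in middle-aged naïve and 51.3 ± 1.01 in middle-aged injured tissue (SD, n = 3). Its log2 difference with injury was -0.13 (SE 0.13, adjusted p = 0.428) in young and -0.25 (SE 0.13, adjusted p = 0.113) in middle-aged mice, and the young value changed sign to 0.07 with library totals alone as the scale. Cxcl14 stood at 18.9 ± 4.50, 15.9 ± 1.75, 14.8 ± 2.49 and 17.5 ± 0.354 CPM in the same order of groups, with differences of -0.26 (adjusted p = 0.288) and 0.24 (adjusted p = 0.308). Ccl25 and Ccl27a, epithelial ligands, were tested but not called in any comparison, and both stayed below 3 CPM in every group mean. Without middle-aged naïve pool 3, Ccl27a was called lower in middle-aged lesions (-1.72, adjusted p = 0.00388, against -1.24, adjusted p = 0.0734, with all pools).

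**Figure D4:**
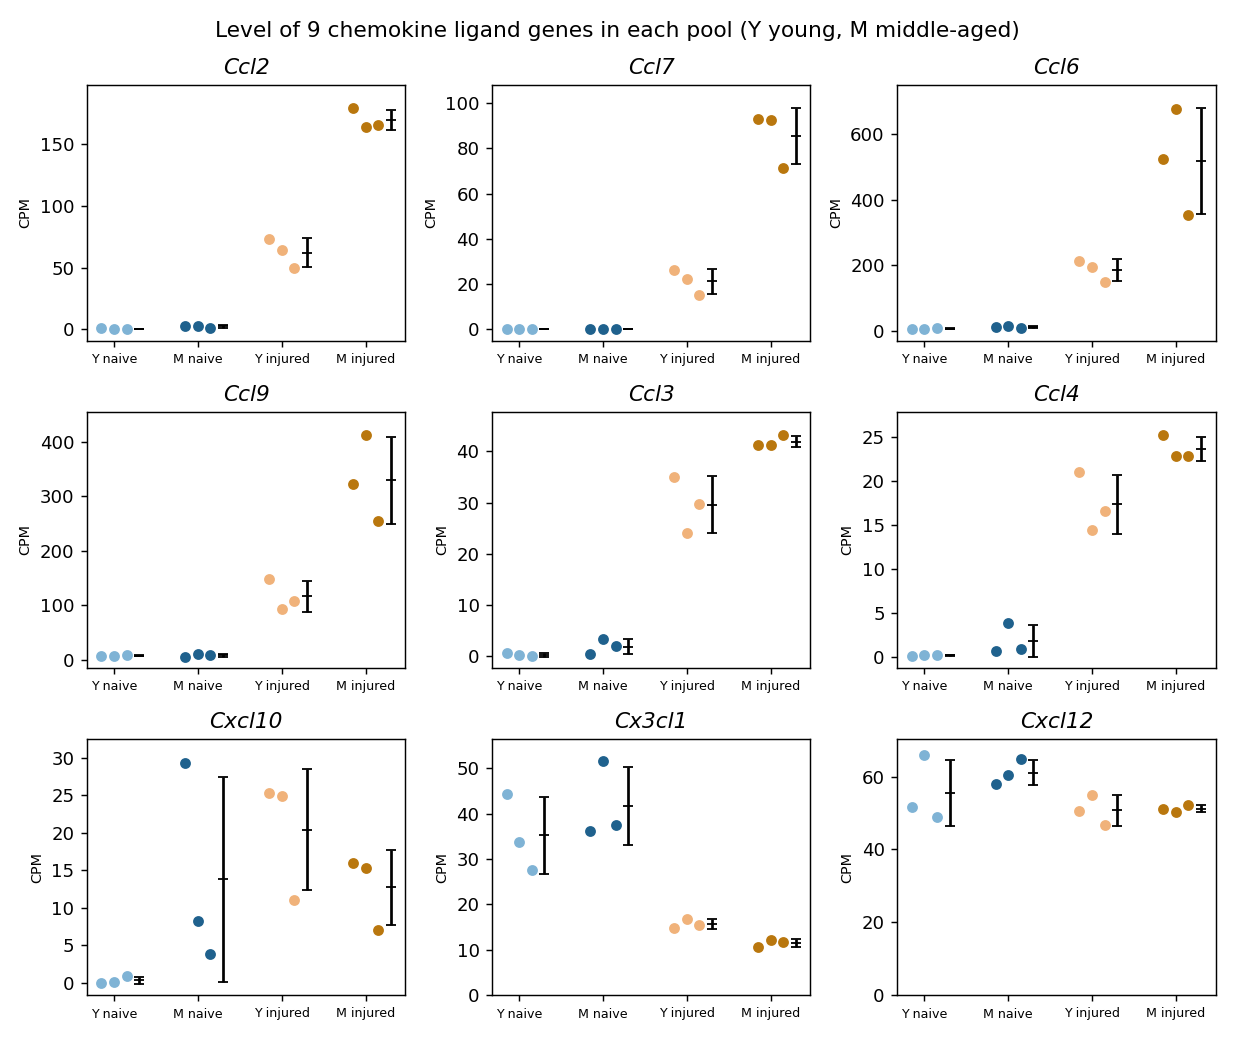
Level in CPM of 9 members in each pool, by group (Y, young; M, middle-aged); points are pools and the black bars give mean ± SD of 3 pools. Ccl2, Ccl7, Ccl6 and Ccl9 step up from young injured to middle-aged injured pools without overlap, Cxcl10 is spread widely in middle-aged naïve pools, Cx3cl1 is lower in injured pools, and Cxcl12 stays between 46.7 and 66 CPM.

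The next comparison asked whether naïve tissue differed with age. Of the 19 members, 3 were called, all higher in middle-aged mice, against 3.80% of all genes in either direction and 2.02% higher. Cxcl10 had 0, 1 and 8 counts in young and 306, 79 and 47 in middle-aged naïve pools, a log2 difference of 5.51 (SE 0.95, adjusted p = 0.00522), and 14 genes of those tested had a larger one. The difference was 4.3 without middle-aged naïve pool 1 (adjusted p = 0.00831) and 4.9 without young pool 1 (adjusted p = 0.0306). Without young pool 3, the ratio of summed counts was 293 (95% counting interval 52.3 to 11600, adjusted p = 0.0116). Ccl4 differed by 3.37 (SE 0.74, adjusted p = 0.0238) and Ccl2 by 3.26 (SE 0.69, adjusted p = 0.0187), from the counts given above. For each of these 3 the pools of the 2 ages did not overlap, which rests on the same counts as the test and adds no support to it. The share of all genes whose naïve pools did not overlap between ages is not given here. The counts of Ccl4 and Ccl2 are small: the highest naïve count was 37 for Ccl4 and 31 for Ccl2. When only the 6 naïve pools entered the model, 10 members passed the filter, Ccl4 not among them, and 0 were called (adjusted p = 0.0653 for Cxcl10 and 0.244 for Ccl2), whereas DESeq2 called 5. Leaving out young naïve pool 1 ended the call of Ccl4 (adjusted p = 0.0981), and leaving out young naïve pool 2 or 3 left only Cxcl10 called. Without young naïve pool 1, Ccl2 was at least 7.68-fold above the floor in middle-aged mice (adjusted p = 0.0071), and without young naïve pool 2 its difference was 2.66 (adjusted p = 0.0761). That of Ccl4 was 2.22 without middle-aged naïve pool 2 (adjusted p = 0.028). Ccl3 (2.66, SE 0.73, adjusted p = 0.0593), Cxcl16 (1.55, adjusted p = 0.149) and Ccl6 (0.76, adjusted p = 0.178) did not pass. Beside these ligands, 4 of 6 pan-myeloid markers, 3 of 6 microglial markers and 2 of 6 monocyte and macrophage markers were higher in middle-aged naïve tissue. Their summed levels were 71.8 to 102 against 110 to 147 CPM, 411 to 547 against 647 to 856 CPM and 1.81 to 2.26 against 5.04 to 9.12 CPM, and their part in the ligand differences was not tested.

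Within lesions, 4 members exceeded the level of young mice in middle-aged mice and none was lower, against 1.15% of all genes called in either direction, 0.240% called higher and 0.908% called lower. These were Ccl7, Ccl9, Ccl6 and Ccl2, and for each the 3 middle-aged pools lay above the 3 young pools. Ccl7 was at 21.3 ± 5.55 CPM in young and 85.5 ± 12.3 in middle-aged lesions, a log2 difference of 2.0 (SE 0.24, adjusted p = 0.00142). Ccl9 was at 116 ± 28.3 and 329 ± 78.9 CPM, a difference of 1.5 (SE 0.22, adjusted p = 0.00405). Ccl6 was at 186 ± 32.9 and 518 ± 160 CPM, a difference of 1.47 (SE 0.24, adjusted p = 0.00921). Ccl2 was at 62 ± 11.8 and 169 ± 8.41 CPM, a difference of 1.45 (SE 0.28, adjusted p = 0.0205). The calls of Ccl7 and Ccl9 held in each of the 21 alternatives (highest adjusted p 0.0221 and 0.0344). That of Ccl2 was lost on leaving out any 1 of the 6 injured pools (adjusted p 0.0545 to 0.159), and that of Ccl6 on leaving out young injured pool 2 or 3 or middle-aged injured pool 2 (0.0533 to 0.0763).

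The remaining members of the 2 chromosome 11 clusters that were tested did not pass between lesions. Ccl8 was 1.95 higher on the log2 scale (SE 0.54, adjusted p = 0.153) and Ccl12 1.02 higher (SE 0.43, adjusted p = 0.415), each from low counts and without overlap of the pools. Ccl8 passed when only the injured pools entered the model (adjusted p = 0.0235) and in none of the other 20 alternatives. Ccl3 (0.50, SE 0.36, adjusted p = 0.829) and Ccl4 (0.44, SE 0.36, adjusted p = 0.868) also had middle-aged pools above all young pools. Cxcl10 had a difference of -0.68 (adjusted p = 0.905), with overlapping pools. Cx3cl1 had a difference of -0.45 (adjusted p = 0.468), and its middle-aged pools (10.5 to 12.2 CPM) lay below all young pools (14.8 to 16.8 CPM). The share of all genes whose pools did not overlap between lesions is not given here. The summed level of the pan-myeloid markers was 1373 to 1394 CPM in young and 1461 to 1950 CPM in middle-aged lesions, and that of the monocyte and macrophage markers 302 to 382 and 395 to 459 CPM, with none of the 6 markers of either list called. Microglial markers summed to 3596 to 4004 and 3159 to 4380 CPM, with none called. Fibroblast markers were 657 to 1056 in young against 302 to 581 CPM in middle-aged lesions, with 2 of 5 lower, and 5 of 6 oligodendrocyte markers were also lower. The part of cell composition in the ligand differences was not tested.

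**Figure D5:**
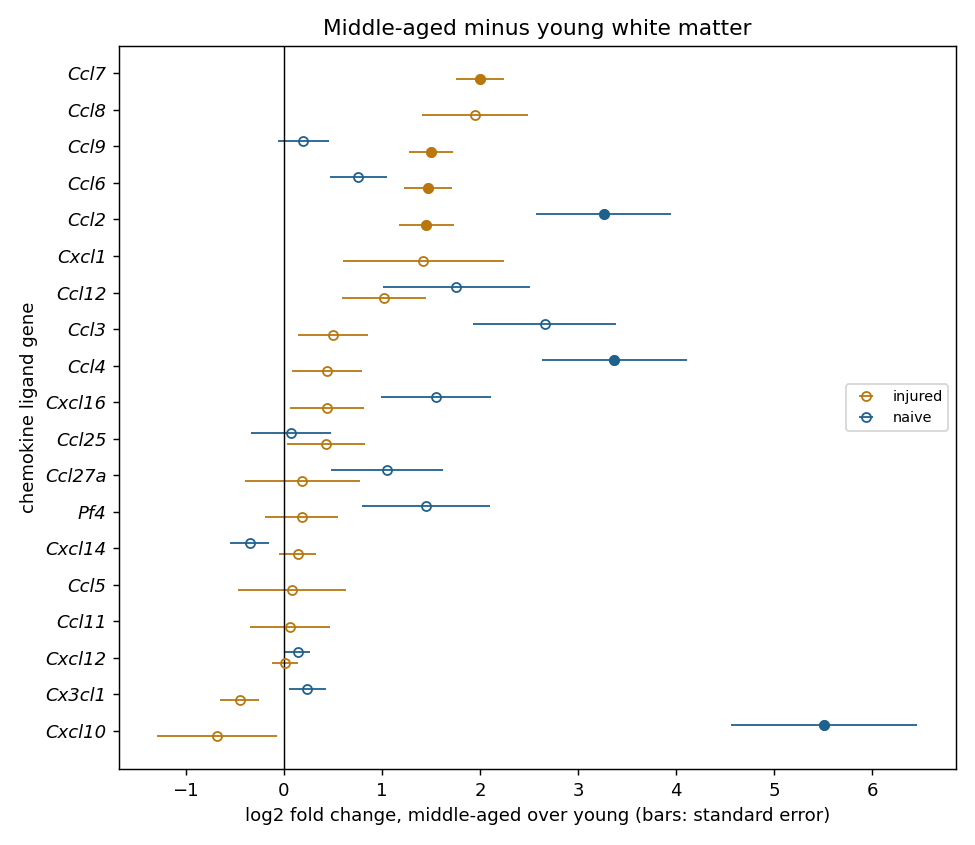
Log2 fold change of each member, middle-aged over young, in injured and naïve tissue; points are estimates, bars are standard errors and filled points passed an adjusted p of 0.05. Naïve values with 3 counts or fewer in either group are left out; Ccl7, Ccl9, Ccl6 and Ccl2 are filled in lesions at 1.45 to 2.0, and Cxcl10, Ccl4 and Ccl2 in naïve tissue at 3.26 to 5.51.

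The change of the injury effect with age, middle-aged minus young, was called by edgeR for 0 of the 19 members (all genes, 0.139%, of which 0.0567% higher and 0.0819% lower). At an unadjusted p under 0.05 there were 6 members, and DESeq2 called 3 (Cxcl10, Ccl4 and Ccl9). The shares of all genes at that unadjusted threshold and by DESeq2 are not given here. The 0.139% is therefore no background for these 2 counts. The injury and age comparisons share pools, so that a high naïve value lowers the injury effect and raises the naïve age effect together. Cxcl10 came nearest, with a difference of -6.19 (SE 1.15, adjusted p = 0.0533), and it passed in 7 of 20 alternatives, among them leaving out any 1 of the middle-aged naïve pools. Ccl4 (-2.92, SE 0.85, adjusted p = 0.208), Ccl3 (-2.16, SE 0.83, adjusted p = 0.386) and Ccl2 (-1.81, SE 0.79, adjusted p = 0.465) had smaller injury effects in middle-aged mice, and Ccl9 a larger one (1.30, SE 0.34, adjusted p = 0.151), none past the threshold in edgeR with the filter. Without a filter, Ccl4 (adjusted p = 0.00658), Ccl9 (0.00164) and Ccl3 (0.0413) passed, and with DESeq2 Ccl4 (0.0405) and Ccl9 (0.0219) did. Cx3cl1 differed by -0.69 (SE 0.27, adjusted p = 0.402). The injury effect of Cxcl10, which passed at one age and not at the other, was therefore not shown to differ between ages by the test used here.

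The receptors of these ligands were examined as a group. Of 18 classical chemokine receptors, 11 were tested, of which 8 were higher in young lesions (all genes, 28.3%) and 9 in middle-aged lesions (29.2%). None was lower. Ccr1, Ccr2, Ccr7, Cxcr2, Cxcr3 and Xcr1 had at most 11 counts in any naïve pool and entered the test through the injured pools. The counts of receptors that rose therefore lean towards a rise. Ccr2, the receptor of Ccl2, Ccl7 and Ccl12, had no count in young naïve pools and 64.7 ± 15.9 CPM in young lesions, and 0.68 ± 0.506 CPM in middle-aged naïve tissue and 131 ± 23.4 CPM in middle-aged lesions. Ccr1, the receptor of Ccl3, Ccl6 and Ccl9, rose by 4.80 (SE 0.43, adjusted p = 3.66e-07) in young lesions, Cx3cr1 by 2.13 (adjusted p = 7.63e-08) and Xcr1 by 2.26 (adjusted p = 0.0138). Between lesions, Ccr1 was higher in middle-aged mice by 1.43 (SE 0.28, adjusted p = 0.0237). Ccr2 differed by 1.02 (SE 0.25, adjusted p = 0.0821). In naïve tissue, Ccr2 and Cx3cr1 were the 2 receptors higher in middle-aged mice (all genes, 2.02%). Of 6 atypical receptors, which bind chemokines without classical signalling, 5 were tested. In young lesions 2 of them rose, Ccrl2 (2.28, adjusted p = 1.81e-06) and Ackr1 (1.35, adjusted p = 0.0100), and Pitpnm3 fell by 1.44 (adjusted p = 0.00326). Among all genes, 28.3% were higher and 26.3% lower, so these few calls are not read as a result about atypical receptors. In middle-aged lesions 2 rose (all genes, 29.2%) and 2 fell (29.3%), and neither age comparison called any.

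Cytokines known to induce chemokines and the genes downstream of them were also followed. Of 12 inducers, 6 were tested, with 4 higher and 1 lower in young lesions and 5 higher and 1 lower in middle-aged lesions. Among all genes, 28.3% were higher and 26.3% lower in young lesions, and 29.2% and 29.3% in middle-aged lesions. These shares also stand beside the counts of NF-kB feedback genes and proteases below. Tnf and Il1b, which entered the test through the injured pools, rose from at most 2 counts in any naïve pool to 12 to 17 and 15 to 30 counts in young injured pools. Il33, an alarmin of glia, rose by 0.88 (adjusted p = 2.08e-04) and Il4 fell by 1.40 (adjusted p = 0.00125). Between lesions, Il1b (2.09, SE 0.46, adjusted p = 0.0443) and Il33 (1.07, SE 0.15, adjusted p = 0.00405) were higher in middle-aged mice, and between naïve tissues Il1a and Il33 were. Of 9 feedback genes of NF-kB, 5 were higher in young and 7 in middle-aged lesions, none was lower, and none differed with age in either state. Among them Tnfaip3 rose by 3.77, Nfkbiz by 2.66, Nfkb1 by 1.42 and Nfkbia by 0.90 in young lesions. Of 7 ligand-processing proteases, 6 were tested, with 4 higher and 1 lower at each age. Mmp12, the macrophage elastase, went from at most 2 counts to 894 to 1110 counts in young mice, Adam17 and Adam10, which shed Cx3cl1 and Cxcl16, rose by 1.37 and 1.02, and Mmp9 fell by 0.94. Mmp12 was also higher in middle-aged than in young lesions (1.47, SE 0.30, adjusted p = 0.0271), and between naïve tissues 1 protease was higher and 1 lower.

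The interferon response genes were followed beside Cxcl10. All 14 were higher in young lesions (all genes, 28.3%) and 10 of 14 in middle-aged lesions (29.2%). Mx1 (6.32) and Rsad2 (4.64) rose most in young mice, and Stat2 rose by 1.20. Between naïve tissues 5 of 14 were higher in middle-aged mice (Ifit1, Ifit3, Mx1, Usp18 and Rsad2), against 2.02% of all genes, and between lesions 0 were called. The summed level of the 14 genes was 161, 181 and 197 CPM in young naïve and 661, 885 and 665 in young injured pools, and 536, 244 and 204 against 747, 595 and 488 CPM in middle-aged mice. Middle-aged naïve pool 1 was the highest naïve pool both for this sum and for Cxcl10. The part of the interferon response in the Cxcl10 level was not tested.

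Markers of the cell types that the captured tissue could hold moved with the lesion as well. Among all genes, 28.3% were called higher and 26.3% lower in young lesions, and 29.2% and 29.3% in middle-aged lesions. All 6 pan-myeloid and all 6 monocyte and macrophage markers were higher at both ages, with summed levels of 71.8 to 147 and 1.81 to 9.12 CPM in naïve pools and 1373 to 1950 and 302 to 459 CPM in injured pools. Microglial markers were mixed, with 3 higher and 1 lower in young and 2 higher and 2 lower in middle-aged lesions. All 5 fibroblast markers were higher at both ages, and 2 of 5 endothelial markers were higher, with 1 lower in middle-aged mice. The endothelial counts lie near the shares of all genes and are not read as a result. All 6 oligodendrocyte markers and 4 of 5 astrocyte markers were lower at both ages. Lymphoid markers were sparse: of 8 T and NK cell markers 2 were tested and 1 was higher at both ages, and of 4 B cell markers 1 was tested and was higher at both ages. Of 6 dendritic cell markers, 3 were higher at both ages, with 2 lower in young and 1 lower in middle-aged mice. Ly6c2, Plac8, Chil3, Ms4a7, Cd4, Cd79b, Cd209a, Clec9a and Xcr1 had at most 7 counts in any naïve pool, and Ccr2 at most 11. They entered the test through the injured pools, so that the counts of monocyte, lymphoid and dendritic cell markers that rose lean towards a rise. Ccr2 and Xcr1 stand in the receptor list as well as in the monocyte and dendritic cell lists. The part of these shifts in the ligand changes was not tested.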

How the data were processed

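RNA from 12 pools was sequenced. Per the labels and methods, the authors checked reads with FastQC 0.11.4, mapped them to GRCm38 with TopHat2 2.0.10 and Bowtie 1.1.2, and deposited raw read counts per gene from featureCounts. The annotation, strand setting and handling of shared reads are not given in the sources used here. Groups came from the sample labels.

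Counts were fitted in R 4.3.3 with edgeR 4.0.16 (TMM, filterByExpr, glmQLFit, glmQLFTest), with 1 coefficient per group over all 12 pools. Benjamini-Hochberg adjustment ran over 15866 genes with 0.05 as the cutoff. Standard errors were taken as the size of the log2 estimate over the root of its F statistic. Of 46078 genes, 45143 (98.0%) had a symbol, and positions and exon lengths came from GENCODE M21. Intervals are 95% Clopper-Pearson based and folds against groups at 0 use a floor of 3 counts per library. Totals of 9834447 to 12807437 counts set the precision of low members. The fitting code was tested on simulated data.

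Members with full values passed the filter and were either called in any of 5 contrasts or reached a group mean of 5 CPM. Of each pathway list (classical and atypical receptors, inducers, NF-kB feedback, interferon response, proteases), the 2 highest and 2 lowest called in young lesions were named, except genes not reported here. Members and lists, including the cell type markers, were chosen with earlier results of these data known. Alternatives were 4 other scalings, DESeq2 1.42.0, 2 other filters, the replicate block, only the pools compared, and each pool left out in turn.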

Additional observations from a re-analysis of the deposited data

How the results depend on the processing

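The number of members called with injury stayed between 13 and 17 at both ages under each alternative run. For age in naïve tissue, where 3 members were called, the number was 6 without a filter, 5 with DESeq2, 0 of 10 tested with only the pools compared and 1 to 4 with 1 pool left out. For age in lesions, where 4 were called, it was 5 without a filter (with Cxcl13), 5 with only the pools compared (with Ccl8) and 2 to 4 with 1 pool left out. For the difference of injury effects, where 0 were called, it was 1 with library totals alone, 4 without a filter, 3 with DESeq2 and 0 to 1 with 1 pool left out. The cause of these shifts was not tested, and the shares of all genes called under these alternatives are not given here. With 10 counts as the floor, 9 members in place of 15 were detected in middle-aged naïve tissue.

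Directions changed for 2 members that were not called. Cxcl12 with injury in young mice was 0.07 with library totals alone and ranged from -0.21 to 0.01 with 1 pool left out, the last value without the second young naïve pool. Cxcl10 with injury in middle-aged mice ranged from -0.56 to 1.11 with 1 pool left out (1.11 without the first naïve pool of that age, 0.19 without the third injured one). Library totals alone moved the median log2 fold change of all genes to 0.197 for injury in young mice and to -0.132 for the difference of injury effects.

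The labels number the pools 1 to 3 in each group, but each pool consists of other mice. Deviations of same-numbered pools from their group means correlated at -0.113 to 0.153. These correlations do not show whether same-numbered pools shared anything besides the number. With the replicate block, 15 and 14 members were called with injury in young and middle-aged mice, 3 and 4 with age in naïve and injured tissue, and 1, Cxcl10, for the difference of injury effects (adjusted p = 0.0329), and the middle-aged injury difference of Cxcl10 was 0.14. At 3 counts as the floor, members with few reads are limited by depth.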

Other observations

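Cxcl13, a B cell attractant that did not pass the filter, had 54, 27 and 4 counts in the middle-aged injured pools and 2, 0 and 6 in the young injured pools. It had 1 count in all 6 naïve pools together. Cxcl17 had 3, 2 and 12 counts in young naïve, 20, 5 and 10 in middle-aged naïve, 4, 0 and 0 in young injured and 1, 2 and 5 in middle-aged injured pools. These members were chosen after their values were seen. Neither was tested with the filter used here and all 12 pools, and in alternatives whose filter let them in, edgeR without a filter called Cxcl13 higher with injury in young (adjusted p = 0.0419) and middle-aged mice and higher in middle-aged than in young lesions (log2 difference 3.47, adjusted p = 0.0103). Its rise in middle-aged lesions was called in each of 12 alternatives that tested it, DESeq2 and 10 with 1 pool left out among them (adjusted p 8.65e-06 to 0.0124). The fits without middle-aged injured pool 1 or 2, which held its 54 and 27 counts, did not let Cxcl13 through the filter. The calls of Cxcl13 therefore do not show whether its rise holds without either pool. Cxcl17 was tested in 12 alternatives and was called lower with injury in 1 at each age, without young injured pool 1 (adjusted p = 0.0203, with 0 counts in the other injured pools of that age) and without middle-aged naïve pool 2 (log2 fold change -2.54, adjusted p = 0.0345).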
